A study of Homo sapiens with 6 samples.

Results

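ATF4 and 9 genes of the integrated stress response were examined in cells expressing wild-type or S34F mutant U2AF1. The 10 genes (ATF4, DDIT3, ATF3, ASNS, TRIB3, CHAC1, PSAT1, PHGDH, VLDLR and CEBPB) were taken by symbol from the 31142 genes of the table, and each symbol had 1 gene identifier. RNA was sequenced from 6 libraries labelled as SKM-1, a human myeloid leukemia cell line that arose from a myelodysplastic syndrome, taken at 96 h. Of these, 3 came from cells transduced with a lentivirus carrying FLAG-tagged U2AF1 with the S34F mutation (S34F) and 3 from cells labelled as expressing wild-type U2AF1 (WT), and U2AF1 is the splicing factor that reads the end of introns. By the study's methods, a ubiquitin promoter drove the transgene and the vector also carried GFP and puromycin resistance. The methods also call the controls of the sequencing a vehicle control, and the grouping here follows the U2AF1 form that each title gives. The WT titles also carry the prefix NC, the paper's short form for negative controls, which its methods describe as untransfected cells. Its results instead describe the sequenced controls as expressing wild-type U2AF1. If the WT cells were not transduced, effects of S34F and of the transduction itself could not be told apart. No source says whether the replicates were separate transductions, so p-values measure only the spread between these libraries.

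The integrated stress response starts when one of several kinases phosphorylates the translation factor eIF2 on its alpha subunit. General protein synthesis then falls, while the ATF4 mRNA, whose upstream open reading frames hold back its translation in unstressed cells, is translated more. ATF4 protein pairs with C/EBP and other bZIP proteins and activates genes of amino acid supply, redox balance and, in long stress, cell death. In the erythroid lineage the heme-regulated kinase EIF2AK1 links heme supply to this response. RNA values show the ATF4 transcript and its target transcripts, and they show neither eIF2 phosphorylation nor ATF4 protein.

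Expression was given in FPKM, which divides the fragments of a gene by its transcript length and by the size of the library. Approximate depths, read from the value of 1 fragment in single-exon genes, ran from 20.5 to 26.1 M fragments. The third replicates stood apart in both groups: deviations from the group means correlated across genes at 0.38 between them, and at -0.205 to -0.295 between replicate 3 of a group and replicates 1 and 2 of the other. The 3 deviations of a gene in a group sum to 0, so the negative values largely follow from the positive one and are no separate evidence. The members' differences are therefore also given without the third replicates. FPKM do not tell the mutant from the wild-type transcript of U2AF1, so the labels were not checked in that way. The labelled cell type was checked with 12 erythroid and 12 monocytic and granulocytic markers. The summed erythroid markers, led by embryonic and fetal globins, reached 11466 to 13091 FPKM in S34F and 11208 to 12041 FPKM in WT, and 9 of the 12 had a mean of at least 10 FPKM. The summed monocytic and granulocytic markers reached 46.5 to 76.1 FPKM in S34F and 68.0 to 89.3 FPKM in WT. Of these 12 markers, 8 had a mean under 1 FPKM and 3 (S100A8, MPO and FCN1) were at or under the value of 3 fragments in every library. LYZ and CD68 were the 2 with a mean of at least 10 FPKM. These values go against the myeloid identity that the SKM-1 label gives, and the libraries are called here by their labels only. In bulk RNA, fewer cells of a type and less RNA per cell cannot be told apart.

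The promoters of 3 members are shown because ATF4 and its C/EBP partners are known to bind a composite element with the core TGATGNAA, and because the 3 genes differed in how they varied among the libraries. The sequences are the 250 bases before the RefSeq transcription start on GRCh38.p14, 5′ to 3′ on the strand of the gene, with TGATGNAA or its reverse complement in capitals. CHAC1 lies at chr15:40953221-40953470 on the plus strand, ASNS at chr7:97872409-97872658 on the minus strand and DDIT3 at chr12:57520515-57520764 on the minus strand. ASNS and DDIT3 each have 2 such windows in the table, of which 1 is shown.
CHAC1: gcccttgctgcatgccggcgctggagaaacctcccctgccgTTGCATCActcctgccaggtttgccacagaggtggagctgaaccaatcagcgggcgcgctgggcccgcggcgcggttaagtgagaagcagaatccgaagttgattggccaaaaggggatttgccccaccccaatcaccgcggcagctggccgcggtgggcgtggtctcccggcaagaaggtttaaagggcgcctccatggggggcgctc
ASNS: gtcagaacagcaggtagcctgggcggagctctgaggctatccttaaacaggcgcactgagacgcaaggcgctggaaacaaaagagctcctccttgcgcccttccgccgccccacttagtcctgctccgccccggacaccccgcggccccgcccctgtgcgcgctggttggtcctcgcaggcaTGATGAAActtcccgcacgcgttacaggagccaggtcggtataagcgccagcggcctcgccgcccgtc
DDIT3: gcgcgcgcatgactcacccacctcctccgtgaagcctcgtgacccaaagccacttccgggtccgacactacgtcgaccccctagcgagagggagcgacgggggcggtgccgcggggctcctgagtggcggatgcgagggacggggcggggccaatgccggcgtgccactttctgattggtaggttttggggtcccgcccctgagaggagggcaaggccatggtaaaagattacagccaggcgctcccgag
Over both strands, 3 of the 10 members held TGATGNAA in these 250 bases (3 of their 17 windows), compared with 3.14% of the 35116 windows of all genes. The match of CHAC1 is on the reverse strand, 209 to 202 bases before the start, and that of ASNS is on the forward strand, 68 to 61 bases before it. ATF3 held the remaining match, TGATGGAA, at 191 to 184 bases before the start. None of the 10 held the CRE motif TGACGTCA, which occurs in 1.65% of windows, and 7 of the members' 17 windows, in 6 genes, held CCAAT, which occurs in 32.0% of windows. No match of one motif overlapped a match of another in the members, and a match describes only the sequence of this window.

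No member was called between S34F and WT. To be called, a gene had to differ by more than 1.5-fold in log2(FPKM + 1) with an unadjusted p under 0.05 in limma, which was fitted over the 10942 genes with a mean of at least 1 FPKM. This filter was passed by 9 of the 10 members, all but VLDLR. Of all genes tested, 64 or 0.585% were called, 23 higher and 41 lower in S34F, and of the 9 members 0 were. At any fold, 262 genes or 2.39% had an unadjusted p under 0.05, and 0 of the 9 members did. No gene at all, 0.0%, had a Benjamini-Hochberg adjusted p under 0.05 in limma, and the adjusted p of each of the 9 members was 1.0. The groups did not overlap for 808 genes or 7.38%, and they overlapped for each of the 9 members. The median difference of the 9 members was -0.05 in log2(FPKM + 1), with 2 above 0 and 7 below, against a median of 0.01 over all genes tested.

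**Figure D1:**
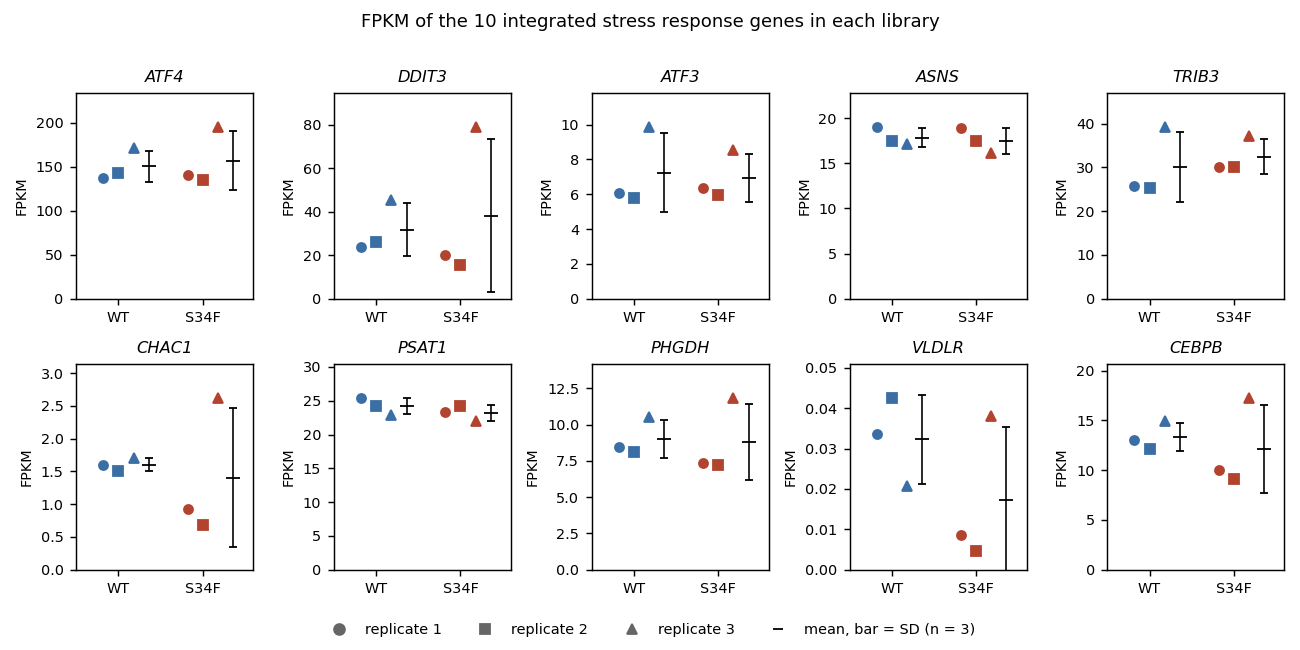
FPKM of the 10 members (vertical axes, linear, from 0) in the 3 WT and 3 S34F libraries, with a symbol for each replicate number. Bars give the mean and SD of each group, cut at 0 for VLDLR, and the triangles of the third replicates are the highest of both groups for ATF4, DDIT3, ATF3, TRIB3, CHAC1, PHGDH and CEBPB.

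ATF4, the regulator of the program, had the highest level of the 10. Its FPKM was 141, 135 and 195 in S34F replicates 1, 2 and 3 and 137, 143 and 171 in WT replicates 1, 2 and 3. The first and second replicates of both groups lay close together and the third replicates lay above them. The means were 157 ± 33.1 FPKM in S34F and 150.2 ± 18.0 FPKM in WT (SD, n = 3). The difference of S34F from WT was 0.05 ± 0.17 in log2(FPKM + 1) (standard error from limma, exact two-sided permutation p = 0.9 on the FPKM), with a 95% interval from 0.784-fold to 1.36-fold. Processed pseudogenes of ATF4 are in the annotation, and the highest of them, ATF4P3, had a mean of 1.16 FPKM, and reads that fit both cannot be told apart here.

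DDIT3 encodes CHOP, a C/EBP family protein that ATF4 induces and that takes part in stress-induced cell death. Its FPKM was 20.1, 15.6 and 79.0 in the S34F replicates and 23.7, 25.9 and 45.7 in the WT replicates. S34F replicate 3 was the highest of all 6 libraries, and the other S34F replicates were below every WT library. The difference of the groups was -0.05 ± 0.59 in log2(FPKM + 1) (exact permutation p = 1.0), and its 95% interval ran from 0.367-fold to 2.55-fold, the widest of the members. DDIT3 overlaps MARS and MBD6 on the other strand and MIR616 and AC022506.1 on its own, and their reads cannot be told apart here. MARS, the methionyl-tRNA synthetase, lay between 23.9 and 27.4 FPKM in all 6 libraries and was not high in the third replicates. MBD6 was at 6.03, 4.77 and 7.504 FPKM in S34F and 5.92, 5.47 and 9.08 FPKM in WT. MIR616 was at 2.55, 0.919 and 12.9 FPKM in S34F and 5.06, 4.56 and 10.4 FPKM in WT. Both were highest in the third replicate of each group, as DDIT3 was, and AC022506.1 had a mean of 0.179 FPKM.

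ATF3, a stress-induced bZIP repressor and activator, reached 6.34, 5.94 and 8.52 FPKM in S34F and 6.08, 5.77 and 9.86 FPKM in WT. The groups overlapped, and the third replicates were the high ones. The difference was -0.03 ± 0.22 in log2(FPKM + 1) (exact permutation p = 0.9). CEBPB, the C/EBP protein that can pair with ATF4 at the composite element, reached 10.01, 9.13 and 17.2 FPKM in S34F and 13.0, 12.1 and 14.9 FPKM in WT. As for DDIT3, a single S34F library was above every WT library and the other S34F libraries were below every WT library. Its difference was -0.17 ± 0.23 in log2(FPKM + 1) (exact permutation p = 0.7). The antisense gene CEBPB-AS1, at a mean of 0.546 FPKM, overlaps it on the other strand.

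TRIB3, a pseudokinase that restrains ATF4 and AKT activity, reached 30.2, 30.1 and 37.1 FPKM in S34F and 25.9, 25.2 and 39.2 FPKM in WT. It had the largest positive difference of the members, 0.13 ± 0.19 in log2(FPKM + 1) (exact permutation p = 0.6), and the WT library with the highest value lay above all S34F libraries. CHAC1, which degrades glutathione, reached 0.920, 0.677 and 2.62 FPKM in S34F and 1.603, 1.503 and 1.71 FPKM in WT. The 3 WT libraries were close together, with a mean of 1.61 ± 0.104 FPKM (SD, n = 3), and the S34F libraries lay on both sides of them, with a mean of 1.41 ± 1.06 FPKM. The difference was -0.20 ± 0.28 in log2(FPKM + 1) (exact permutation p = 0.9), which understates a change at so low a level because of the added 1. With 0.1 or 0.01 added instead, the difference was -0.40 or -0.44, and neither had an unadjusted limma p under 0.05.

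Of the enzymes of amino acid synthesis, ASNS, which makes asparagine, reached 18.9, 17.4 and 16.1 FPKM in S34F and 19.0, 17.4 and 17.1 FPKM in WT. PSAT1, the aminotransferase of serine synthesis, reached 23.3, 24.3 and 22.0 FPKM in S34F and 25.4, 24.2 and 22.9 FPKM in WT. These were the steadiest members, and the third replicates were the lowest of each group, not the highest. The differences were -0.03 ± 0.11 for ASNS (exact permutation p = 0.8) and -0.06 ± 0.10 for PSAT1 (exact permutation p = 0.5) in log2(FPKM + 1), with 95% intervals of 0.822-fold to 1.17-fold and 0.817-fold to 1.13-fold. PHGDH, which opens serine synthesis, instead reached 7.37, 7.19 and 11.8 FPKM in S34F and 8.42, 8.14 and 10.5 FPKM in WT. The third replicates were again the high ones, and the difference was -0.06 ± 0.20 in log2(FPKM + 1) (exact permutation p = 1.0). ASNS overlaps a processed transcript, AC079781.5, on its own strand, and a pseudogene, ASNSP1, had a mean of 0.785 FPKM.

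VLDLR, a lipoprotein receptor that ATF4 is known to induce in some cells, was near the detection limit. It was listed at 0.00873, 0.00460 and 0.0382 FPKM in S34F and at 0.0335, 0.0425 and 0.0208 FPKM in WT. For its longest transcript of 9163 bases, 3 fragments correspond to 0.0125 to 0.0160 FPKM depending on the library, a limit that covers counting error only. S34F replicates 1 and 2 lay under it, no fold change is given here, and a difference was not detectable at this depth.

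By their mean FPKM over the 6 libraries, which is scaled to transcript length, the members ranked ATF4, DDIT3, TRIB3, PSAT1, ASNS, CEBPB, PHGDH, ATF3, CHAC1 and VLDLR. The ranges of neighbours in this order overlapped for DDIT3 and TRIB3, TRIB3 and PSAT1, ASNS and CEBPB, CEBPB and PHGDH, and PHGDH and ATF3. DDIT3 was above TRIB3 in 3 of the 6 libraries and ASNS above CEBPB in 5 of 6. The exact two-sided permutation test over the libraries, whose smallest possible p is 0.1 for 3 against 3, gave p values from 0.3 for VLDLR to 1.0 for DDIT3 and PHGDH.

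Across the members, the highest and lowest values went with the replicate numbered 3. It was the highest of its group in both groups for 7 of the 9 members tested, and 21.3% of all genes tested had this pattern. It was the lowest in both groups for ASNS and PSAT1, and 29.4% of all genes had that pattern. The FPKM of S34F replicate 3 was 4.42 times the mean of the first and second replicates for DDIT3, 3.28 times for CHAC1, 1.80 times for CEBPB, 1.62 times for PHGDH, 1.41 times for ATF4, 1.39 times for ATF3 and 1.23 times for TRIB3. In WT the corresponding ratios were 1.84 for DDIT3, 1.10 for CHAC1, 1.19 for CEBPB, 1.27 for PHGDH, 1.22 for ATF4, 1.66 for ATF3 and 1.54 for TRIB3. The ratio was larger in S34F for DDIT3, CHAC1, CEBPB, PHGDH and ATF4, and larger in WT for ATF3 and TRIB3. With 1 library numbered 3 in each group, these ratios were not tested.

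**Figure D2:**
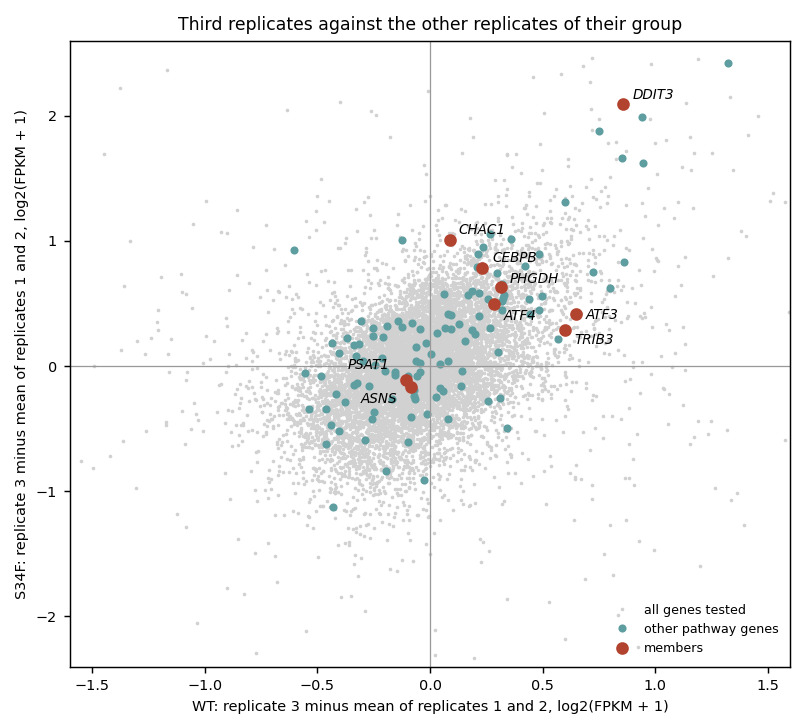
Each point is a gene, placed by the difference of replicate 3 from the mean of replicates 1 and 2 in WT (horizontal) and in S34F (vertical), both in log2(FPKM + 1). Grey points are the genes tested, of which 64 lie outside the axes, blue-green points the other pathway genes, and red points the 9 members, of which 7 lie in the upper right part and ASNS and PSAT1 just below 0 on both axes.

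Without the third replicates, 5 of the 9 members had an unadjusted p under 0.05 in limma, with 2 libraries in each group. So did 1847 genes or 16.9% of all genes tested in these 4 libraries. The differences were -0.36 ± 0.07 for CEBPB (limma, adjusted p = 0.165), -0.51 ± 0.10 for CHAC1 (adjusted p = 0.165), -0.46 ± 0.14 for DDIT3 (adjusted p = 0.245) and -0.17 ± 0.05 for PHGDH (adjusted p = 0.269) in log2(FPKM + 1), all lower in S34F. TRIB3 was higher in S34F, at 0.23 ± 0.04 (limma, adjusted p = 0.154). None of the 9 passed 1.5-fold together with p under 0.05, as 1.71% of all genes did. For CHAC1 the added 1 reduces the fold on this scale: its mean in these 4 libraries was 0.799 FPKM in S34F and 1.55 FPKM in WT. Smaller pseudocounts were run only with all 6 libraries, so whether CHAC1 would be called with them here was not tested. ATF4, at -0.02 ± 0.05, ATF3, at 0.04 ± 0.06, ASNS, at -0.00 ± 0.07, and PSAT1, at -0.06 ± 0.05, did not have an unadjusted limma p under 0.05. Monocytic and granulocytic markers were lower in S34F too: all 4 that were tested lay below 0 with all 6 libraries (median -0.42). CD33 and ITGAM had an unadjusted limma p under 0.05 there, against 2.39% of all genes. These markers were again lower without the third replicates (median -0.56, 3 of 4 with such a p, LYZ and ITGAM called). Of the 12 erythroid markers, 10 lay above 0 with all 6 libraries (median 0.04) and 0 had such a p. Without the third replicates their median was 0.10, 4 of 12 had such a p and 1 was called. The part of either marker set in the members' differences was not tested. Leaving out S34F replicate 3 alone gave CEBPB -0.44 and CHAC1 -0.54, each with an unadjusted limma p under 0.05, as for 10.6% of all genes, and DDIT3 -0.74, which did not reach it.

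**Figure D3:**
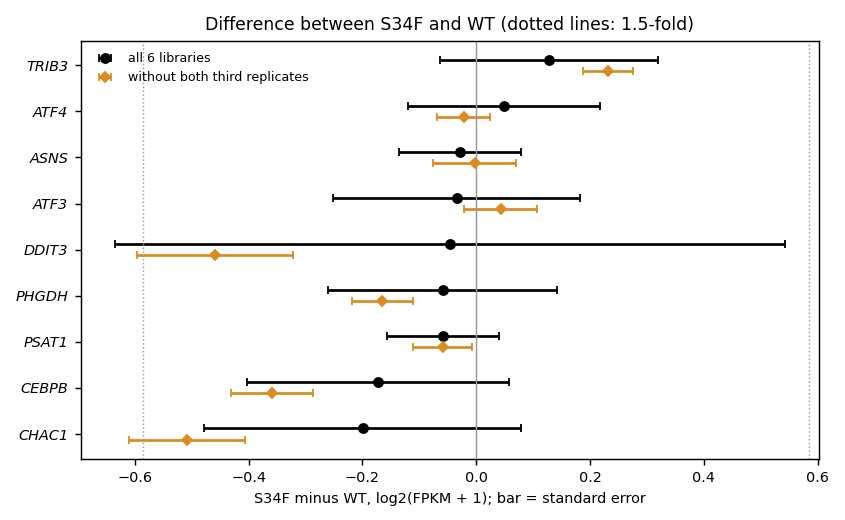
S34F minus WT in log2(FPKM + 1) for the 9 members tested (horizontal axis), with all 6 libraries (black circles) and without the third replicates (orange diamonds). Bars are standard errors from limma and dotted lines mark 1.5-fold; with all 6 libraries every bar crosses 0, and without the third replicates those of CEBPB, CHAC1, DDIT3, PHGDH and TRIB3 lie clear of it and that of PSAT1 by little.

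Upstream of ATF4, the kinases that phosphorylate eIF2 differed widely in level, and none was called between the groups. EIF2AK1 (HRI), the heme-regulated kinase, was the highest, at 44.7, 47.8 and 44.8 FPKM in S34F and 44.3, 45.1 and 43.3 FPKM in WT. EIF2AK2 (PKR), which senses double-stranded RNA, reached 1.88 to 3.44 FPKM in S34F and 2.01 to 2.64 FPKM in WT. EIF2AK3 (PERK), the kinase of the endoplasmic reticulum, reached 0.980, 1.10 and 2.10 FPKM in S34F and 1.08, 0.818 and 1.21 FPKM in WT. EIF2AK4 (GCN2), which senses uncharged tRNA, reached 2.71 to 3.18 FPKM in S34F and 2.44 to 3.31 FPKM in WT. The differences of the 4 kinases lay between 0.03 and 0.21 in log2(FPKM + 1), none with an unadjusted p under 0.05 in limma. Among the 8 genes tested of the kinase list, 0 were called, against 0.585% of all genes. A count of 0 in a list this small does not set it apart from that share, here and in the lists below. DNAJC3, a PERK inhibitor, had the largest positive difference, 0.29, and DELE1, which relays mitochondrial stress to HRI, had the largest negative difference, -0.20.

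**Figure D4:**
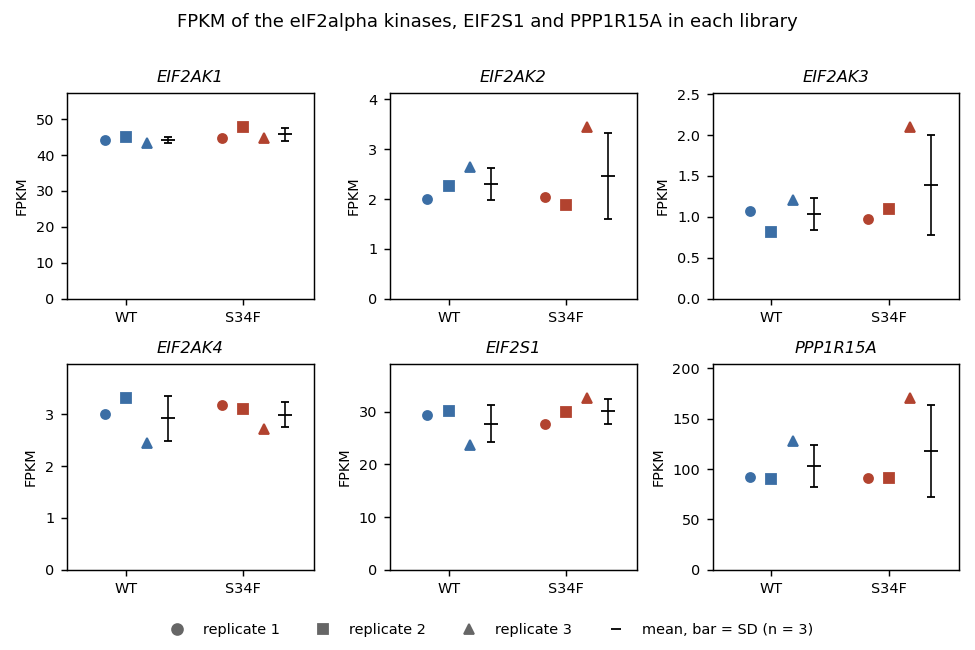
FPKM (vertical axes, linear, from 0) of the 4 eIF2 kinases, of the eIF2 alpha subunit gene EIF2S1 and of the phosphatase subunit gene PPP1R15A in the 3 WT and 3 S34F libraries, with a symbol for each replicate number and bars for the mean and SD. EIF2AK1 stays between 43.3 and 47.8 FPKM, while PPP1R15A lies between 90.3 and 91.6 FPKM in the first and second replicates and at 128 and 170 FPKM in the third replicates.

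Of the 13 genes for eIF2, its exchange factor eIF2B and the eIF2 phosphatase, 0 were called, against 0.585% of all genes. Of the 13, 9 had a difference above 0. EIF2S1, the subunit that is phosphorylated, was at 27.7, 29.9 and 32.6 FPKM in S34F and 29.4, 30.0 and 23.6 FPKM in WT (difference 0.12). PPP1R15A (GADD34), the phosphatase subunit that ATF4 and CHOP induce as feedback, was at 91.1, 91.5 and 170.4 FPKM in S34F and 91.6, 90.3 and 127.5 FPKM in WT (difference 0.14). The first and second replicates of both groups lay together, and the third replicates stood above them. The largest positive difference of this list was PPP1CC, a catalytic subunit, at 0.27, and the largest negative difference EIF2B5 at -0.10. PPP1CC was at 20.8, 17.8 and 14.1 FPKM in S34F and 15.3, 15.0 and 12.5 FPKM in WT, higher in S34F at each replicate number. It had an unadjusted limma p under 0.05 with the replicate number as a block (adjusted p = 0.994) and without the third replicates (adjusted p = 0.217), but not with all 6 libraries unblocked.

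Among 9 tested bZIP partners and regulators, 0 were called, against 0.585% of all genes, and 4 lay above 0 and 5 below. ATF5, another factor under translational control, was at 23.7, 19.9 and 38.6 FPKM in S34F and 26.0, 30.7 and 38.2 FPKM in WT (difference -0.24). CEBPG, a frequent partner of ATF4, was at 6.65, 6.45 and 9.92 FPKM in S34F and 6.49, 6.59 and 8.01 FPKM in WT (difference 0.09). NUPR1, a stress-induced chromatin cofactor, had the largest negative difference of the list, -0.26, and FOS the largest positive difference, 0.23. NUPR1 was at 1.04, 1.16 and 10.2 FPKM in S34F and 2.09, 2.40 and 7.11 FPKM in WT, so that the third replicates were above all others. In this list 6 of the 9 genes had their highest value in the third replicate of both groups, against 21.3% of all genes.

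Of the 9 amino acid transport genes tested, 0 were called, against 0.585% of all genes. SLC3A2, the heavy chain shared by several amino acid exchangers, had the largest positive difference, 0.30, with 58.6, 53.9 and 180.5 FPKM in S34F and 54.6, 55.2 and 99.96 FPKM in WT. SLC7A11, the cystine transporter that pairs with it, stayed under the filter at 0.378 to 0.651 FPKM in S34F and 0.395 to 0.560 FPKM in WT. SLC1A5, a glutamine carrier, had the largest negative difference, -0.13. Of the 17 genes of serine, one-carbon, proline and transsulfuration metabolism, 0 were called, against 0.585% of all genes. Of the 17, 7 lay above 0 and 10 below, and the median was -0.06. PSPH, which completes serine synthesis, reached 5.67 to 8.91 FPKM in S34F and 7.06 to 9.23 FPKM in WT (difference -0.13). The mitochondrial one-carbon enzymes differed in S34F replicate 3, the lowest S34F library for SHMT2 and the highest for MTHFD2: SHMT2 was at 47.4, 46.0 and 24.4 FPKM in S34F and 41.0, 42.3 and 40.8 FPKM in WT, and MTHFD2 at 18.7, 20.2 and 22.9 FPKM in S34F and 23.2, 24.3 and 18.2 FPKM in WT. Their differences were -0.13 and -0.08. The extremes of this list were PYCR1, of proline synthesis, at 0.15 and PCK2 at -0.16.

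Of the 21 genes for cytosolic tRNA synthetases and tRNA export, 0 were called, against 0.585% of all genes. The differences ran from -0.11 for VARS to 0.18 for TARS, with a median of 0.04. In this list 9 of the 21 genes had their lowest value in the third replicate of both groups and 5 their highest. Of all genes, 29.4% and 21.3% did.

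Among 19 tested stress outputs, DDIT4 was the 1 gene with an unadjusted p under 0.05, and with all 6 libraries the only such gene among the 112 other pathway genes tested, against 2.39% of all genes. With the replicate number as a block there were 4 such genes (DDIT4, PPP1CC, HSPA5 and HSP90B1), against 4.05% of all genes, and without the third replicates 20 of 111, against 16.9%. DDIT4 (REDD1), which restrains mTORC1 signalling, was at 39.5, 43.2 and 51.4 FPKM in S34F and 68.6, 69.6 and 57.8 FPKM in WT. Every S34F library was below every WT library. The difference was -0.54 ± 0.14 in log2(FPKM + 1) (standard error, limma adjusted p = 1.0), just short of the 1.5-fold limit of 0.58. CDKN1A, a cell cycle inhibitor, had the largest positive difference, 0.62, with 14.9, 13.6 and 28.1 FPKM in S34F and 12.6, 13.8 and 8.32 FPKM in WT, and S34F replicate 3 as the high library. It was past 1.5-fold but was not called, as its unadjusted limma p was not under 0.05. The paper, with its own test, reports CDKN1A as upregulated in its RNA sequencing, and also higher by qRT-PCR and western blotting. SESN2, an inhibitor of mTORC1, was at 21.3, 20.5 and 33.6 FPKM in S34F and 24.6, 25.3 and 31.3 FPKM in WT (difference -0.13).

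The 16 genes of the IRE1 and ATF6 arm, which serve protein folding in the endoplasmic reticulum through branches apart from eIF2, all lay above 0, as did 54.6% of all genes tested. The differences ran from 0.05 for ERN1 to 0.29 for HSPA5, with a median of 0.15. None was called or had an unadjusted p under 0.05 in limma, against 0.585% and 2.39% of all genes. HSPA5 (BiP), the main chaperone of the compartment, was at 151.5, 148.3 and 221.3 FPKM in S34F and 121.2, 126.6 and 175.5 FPKM in WT. S34F was higher than WT at each replicate number. With the replicate number as a block, HSPA5 and HSP90B1 passed an unadjusted limma p under 0.05, as did 4.05% of all genes, and no gene passed an adjusted one. XBP1, the factor that IRE1 activates by splicing, was at 31.4, 41.3 and 65.1 FPKM in S34F and 37.5, 27.2 and 58.9 FPKM in WT. Without the third replicates 8 of the 16 had an unadjusted limma p under 0.05, against 16.9% of all genes. EDEM1 was lower in S34F and the others (HSPA5, HSP90B1, SDF2L1, MANF, PDIA4, HYOU1 and CALR) were higher. Of the 16, 0 were called there, against 1.71% of all genes. In this arm 12 of the 16 genes had their highest value in the third replicate of both groups, against 21.3% of all genes.

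**Figure D5:**
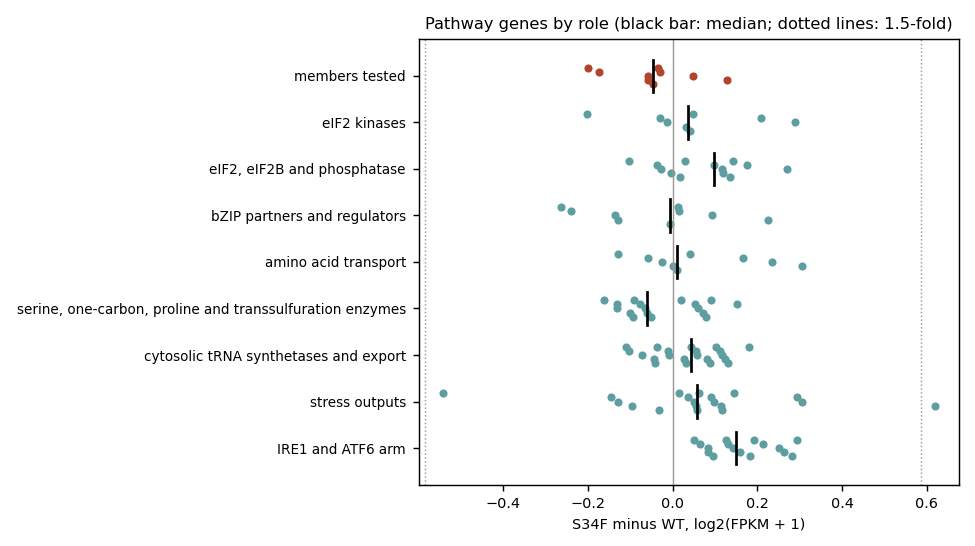
S34F minus WT in log2(FPKM + 1) (horizontal axis) for the 9 members tested and for the tested genes of 8 pathway lists, 1 point a gene, with the median as a black bar and dotted lines at 1.5-fold. All medians lie between -0.06 and 0.15, the points of the IRE1 and ATF6 arm are all above 0, and DDIT4 (left) and CDKN1A (right) are the farthest from 0.

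Over all 8 lists, 122 of 123 genes were in the table and 112 were tested, and 0 were called against 0.585% of all genes. Of the 112, 73 or 65.2% lay above 0 and 39 below, against 54.6% of all genes above 0. Their median difference was 0.05 with all 6 libraries and -0.007 without the third replicates, against 0.01 and -0.007 over all genes tested. The groups did not overlap for 6 of the 112 (DDIT4, SLC38A2, SHMT1, XPOT, TXNIP and PDIA6), against 7.38% of all genes. The third replicate was the highest of both groups for 45 of the 112, against 21.3% of all genes. It was the lowest of both for 27, against 29.4% of all genes. Pathway genes with large values there that were named after their values were seen are SQSTM1, an autophagy receptor, at 186 FPKM in S34F replicate 3 and 123 FPKM in WT replicate 3 compared with 59.0 to 63.5 FPKM in the other libraries, and HERPUD1, of endoplasmic reticulum degradation, at 19.4 and 8.90 FPKM compared with 4.51 to 4.92 FPKM. The chaperone DNAJB9 was at 14.6 and 6.91 FPKM there compared with 2.85 to 3.34 FPKM. Erythroid and myeloid marker sums moved with these libraries too, the erythroid sum being lowest and the myeloid sum highest in the third replicate of each group, and their part in these values was not tested.

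Finally, the genes whose log2(FPKM + 1) over the 6 libraries was most like the mean standardised profile of the 8 tested members other than ATF4 were NEDD8 (Pearson r 0.999), SFXN3 (r 0.997), PHKG2 (r 0.995), CTH (r 0.990) and TBC1D9B (r 0.990). NEDD8 was at 22.9, 22.2 and 26.7 FPKM in S34F and 24.6, 23.4 and 26.4 FPKM in WT, the same order of libraries on a small scale. CTH, the transsulfuration enzyme and itself a pathway gene, was at 4.10, 3.71 and 5.48 FPKM in S34F and 4.57, 4.35 and 5.34 FPKM in WT. The 8 members are part of the profile, which raises their own r: CEBPB (r 0.963) was at rank 48 of the genes tested, PHGDH (r 0.959) at rank 56, DDIT3 (r 0.918) at rank 281 and TRIB3 (r 0.664) at rank 2181. ASNS (r -0.50) and PSAT1 (r -0.56) ran against the profile even so. ATF4, which is not part of it, was at r 0.862 and rank 718. These correlations rest on 6 libraries of which the third replicates stand apart, and they are given as descriptions.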

How the data were processed

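The authors deposited 1 table of FPKM for 31142 genes in 6 libraries. Exactly whole numbers make up 0 of its values above 0, although its name would promise counts. The submitters' processing notes name StringTie and edgeR, and the aligner, genome build, annotation and strand setting are not given in the sources used here. The deposited fold changes, p-values and q-values of the authors' own comparison were not used.

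Genes with a mean of at least 1 FPKM were tested with limma 3.58.1 in R 4.3.3 on log2(FPKM + 1), with moderated variances that follow a trend with the mean, after the script was tested on simulated data. Alternatives were other scalings, filters, pseudocounts and variance models, each library left out, the third replicates left out, and a replicate block. Deviations from the group means correlated at 0.212, 0.174 and 0.38 between same-numbered libraries, all above 0.1. Unlike-numbered libraries also passed 0.1: S34F replicate 2 with WT replicate 1 (0.197) and S34F replicate 1 with WT replicate 2 (0.134). The block takes the numbers as pairs, but these values set only the third replicates apart. They do not show which of replicates 1 and 2 belong together. The paper's results speak of pairs of independent RNA samples from the mutant and WT cells, without saying what was paired. The standard errors and intervals given for the members come from the fit without the block. Gene models came from GENCODE 29, which holds 31002 of the identifiers, and promoters from RefSeq. All 10 members were matched there. Depth was estimated from single-exon genes, and limits cover counting error only.

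The members and lists were chosen with earlier results of these data known. Named genes were the members, a list of pathway genes, the largest positive and negative difference of each list, any list gene with p under 0.05, and the 5 genes most like the members' profile. Further names were picked with their values in view.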

Additional observations from a re-analysis of the deposited data

How the results depend on the processing

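Among 89 values of the members' differences under settings other than leaving out a single library, 82 kept their direction and side of the threshold, 5 passed p under 0.05 and 2 reversed. All 7 changes came from leaving out the third replicates of both groups, where ATF4 turned to -0.0224 and ATF3 to 0.0429. Scaling, filter, pseudocount and variance model changed no direction and no call of a member, but a smaller pseudocount moved CHAC1 from -0.20 to -0.40 (0.1) and -0.44 (0.01). With the replicate block 0 of the 9 members and 0 of the pathway genes were called. The block changed no call of a member at p under 0.05, though 443 genes rather than 262 passed it, and 4 pathway genes rather than 1. Standard errors were smaller with the block for each of the 9 members, such as 0.29 rather than 0.59 for DDIT3 and 0.09 rather than 0.17 for ATF4. Leaving out each library in turn gave differences from -0.74 to 0.39 for DDIT3, -0.54 to 0.0176 for CHAC1, -0.44 to -0.01 for CEBPB, -0.27 to 0.0542 for PHGDH, -0.17 to 0.18 for ATF3, -0.12 to 0.15 for ATF4, -0.0845 to 0.0258 for ASNS, -0.10 to -0.02 for PSAT1 and 0.02 to 0.33 for TRIB3.

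The count of called members was 0 in every setting run, and smaller pseudocounts were run only with all 6 libraries. The count of other pathway genes called was 0 to 1 when each library was left out, with CDKN1A (0.80) called without S34F replicate 2 and DDIT4 called without S34F replicate 3 (-0.64) or WT replicate 3 (-0.63). It was 2 without the third replicates (DDIT4 at -0.73 and NUPR1 at -0.63) and 1 for unadjusted p at any fold. The cause was not tested. The number of all genes called was 122 instead of 64 with a pseudocount of 0.1 or 0.01, 22 with a filter at 5 FPKM and 186 without the third replicates. Depth limits VLDLR, and the added 1 limits CHAC1.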
